A study of Mus musculus with 6 samples.

Results

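Acta2, Tagln, Myh11 and Cnn1 are genes of the smooth muscle contractile apparatus. Rgs5, Pdgfrb, Notch3, Cspg4, Vtn and Higd1b are genes commonly used to mark pericytes. These genes were examined in heart RNA of wild type mice and of mice carrying R193H, an amino acid substitution in cardiac troponin I (cTnI). The 10 genes were chosen by name as markers of mural cells, from the 44792 gene symbols in the deposited table. All mice were of the C57BL/6 strain, 3 months old and untreated, with 3 wild type hearts and 3 hearts that the labels give as cTnI R193H mutation. How the substitution was introduced, and in which cells, is not given in the sources used here, and counts per gene do not show the changed base. The series design describes the hearts within each genotype as biological repeats, 1 library each.

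Mural cells wrap the blood vessels of the heart. Smooth muscle cells surround arteries and arterioles and contract through alpha smooth muscle actin and smooth muscle myosin, a programme driven by serum response factor (SRF) and its coactivator myocardin at DNA elements called CArG boxes. Pericytes sit on capillaries, are recruited by platelet-derived growth factor B from endothelium through the receptor PDGFRB, and express few contractile genes, while NOTCH3 receives signals from endothelial ligands in both kinds of mural cell.

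The hearts gave 14736067 to 21852210 counts each, and mitochondrially encoded genes took 30.9% to 36.8% of them, with the lowest share in R193H replicate 2. On the first principal component of all tested genes (27.8% of the variance), R193H replicate 2 lay at 41.6 and the other hearts between -22.0 and 1.19. The log2 fold changes of the 10 genes and the medians of related gene lists are therefore given with and without R193H replicate 2. Of the 14370 genes tested, R193H replicate 2 held the highest value of 23.2%, against 13.9% for R193H replicate 1 and 14.7% for R193H replicate 3. The same heart held the lowest value of 23.9%, against 12.9% for R193H replicate 1 and 14.8% for R193H replicate 3. Ventricular cardiomyocyte markers summed to 45407 to 48178 CPM in wild type hearts and 41324 to 44676 CPM in R193H hearts (CPM, read counts per 1e6 counts of the TMM-adjusted library total). Over all genes listed, whether or not they passed the filter on low counts, the 8 skeletal muscle markers summed to 2.13 to 3.25 CPM and the 7 hepatocyte markers to 2.20 to 7.64 CPM per heart, with Alb, Fgb and Myh4 at 0 counts. All 10 mural cell genes were detected in every heart and passed the filter on low counts. In whole tissue, fewer cells of a type and less RNA per cell cannot be told apart.

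Sequence just upstream of transcription starts is shown for genes that stood at opposite ends in R193H replicate 2. Acta2 and Cnn1 were at their highest there, and Rgs5 was at its lowest. The pericyte genes Pdgfrb and Cspg4 were also at their highest in this heart, and their sequence is not shown. RefSeq promoters on GRCm38.p6 were at hand for 6 of the 10 genes (Acta2, Cnn1, Rgs5, Notch3, Cspg4 and Vtn), and the 250 bases before each start were searched on both strands for the CArG box, for a CArG box in which 1 inner base is G or C, for TATAAA and for TGGGAA, the core recognised by the Notch partner RBPJ. For Acta2, the 30 bases around each of its CArG-like matches are printed in the direction of the gene (minus strand, chr19:34255438-34255467 and chr19:34255388-34255417), with the match in capitals. For Cnn1 (plus strand, chr9:22099003-22099215) and Rgs5 (plus strand, chr1:169655251-169655500), the stretch upstream of every annotated start is printed, in which none of these motifs was found.
Acta2 first element: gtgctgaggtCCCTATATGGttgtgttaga
Acta2 second element: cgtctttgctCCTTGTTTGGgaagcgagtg
Cnn1 upstream: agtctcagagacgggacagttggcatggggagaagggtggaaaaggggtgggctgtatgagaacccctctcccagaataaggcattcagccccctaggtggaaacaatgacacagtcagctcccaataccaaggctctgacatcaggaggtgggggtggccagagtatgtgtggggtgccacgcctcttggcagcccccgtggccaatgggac
Rgs5 upstream: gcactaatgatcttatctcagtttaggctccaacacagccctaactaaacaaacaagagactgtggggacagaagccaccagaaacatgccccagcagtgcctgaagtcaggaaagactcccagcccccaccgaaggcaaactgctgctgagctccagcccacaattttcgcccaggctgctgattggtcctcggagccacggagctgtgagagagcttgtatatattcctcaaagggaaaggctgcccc

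Counted back from the RefSeq start, the Acta2 elements lay at -84 to -75 and at -34 to -25, and each had 1 inner base outside the A and T of a strict CArG box. GENCODE places both within the first exon of a longer Acta2 transcript. A TGGGAA match of Acta2, at -27 to -22, overlapped the second element. Vtn held TATAAA matches on both strands between -137 and -130 and 1 TGGGAA match, at -236 to -231. Cnn1, Rgs5, Notch3 and Cspg4 held no match to any of the motifs in 250 bases, and none of the 6 genes held a strict CArG box there. Among all 32851 promoters searched the same way, 1.47% held a strict CArG box, 8.59% a strict box or the form with 1 inner G or C, 12.4% TATAAA and 21.6% TGGGAA. A match describes these letters only and shows no binding.

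Contractile genes had higher means in R193H hearts for 4 of 4, with log2 fold changes from 0.040 to 0.41, and pericyte genes for 4 of 6, with log2 fold changes from -0.15 to 0.20, while 49.9% of all genes tested had a higher mean. None of the 10 passed an adjusted p of 0.05 in edgeR's quasi-likelihood test with Benjamini-Hochberg adjustment over all genes, where 0.00696% of the genes tested did. None had an unadjusted p under 0.05 either, as 5.73% of all genes did, and DESeq2 and limma-voom also called 0 of the 10. The groups overlapped for all 10, while they did not overlap for 11.8% of all genes. The contractile median of 0.17 turned to -0.11 without R193H replicate 2, and 0 of 4 contractile genes then had a higher mean. The pericyte median was 0.019 with all hearts and -0.018 without that heart, when 2 of 6 pericyte genes had a higher mean. Without R193H replicate 3 instead, the contractile median was 0.37 (4 of 4 higher) and the pericyte median 0.11 (5 of 6 higher). The median of all genes lay at -0.00036 with all hearts.

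**Figure D1:**
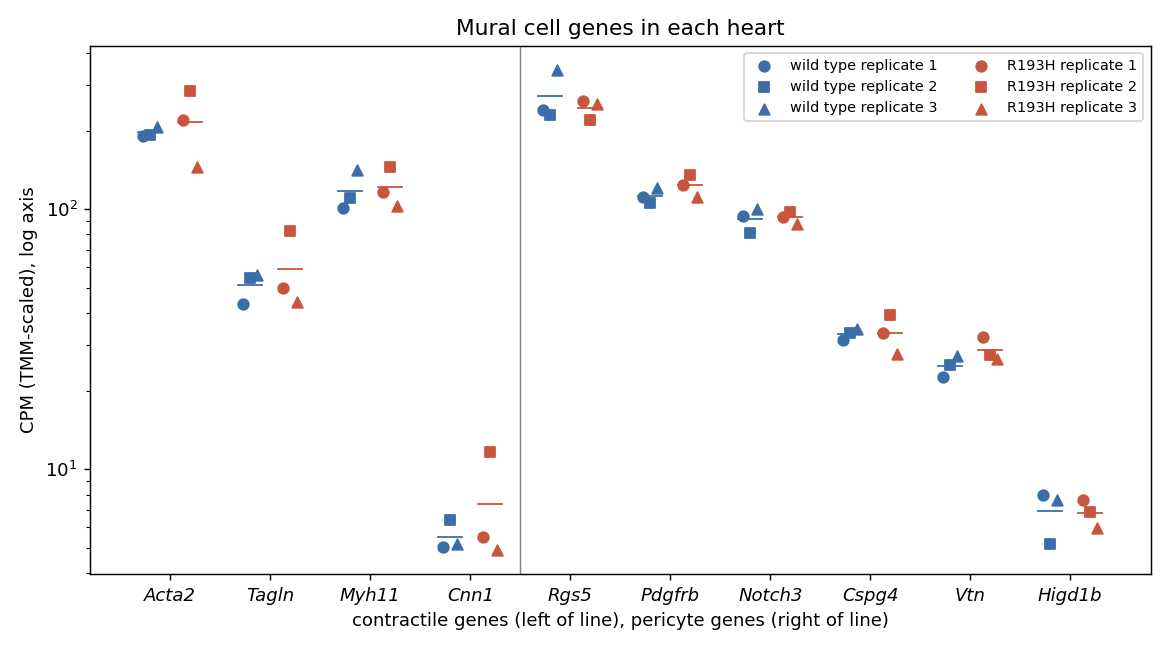
CPM (TMM-scaled, log axis) of the 10 genes in each heart, contractile genes left of the vertical line and pericyte genes right of it; blue symbols are wild type hearts, red symbols R193H hearts, and short lines the group means. All 4 contractile genes were highest in R193H replicate 2 (red square), where Acta2 reached 285 CPM, while Rgs5 was lowest there at 219 CPM.

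Acta2, which encodes alpha smooth muscle actin (GRCm38 chromosome 19, 34241090 to 34255590), measured 191, 192.99 and 208 CPM in wild type replicates 1, 2 and 3, and 220.4, 285 and 145 CPM in R193H replicates 1, 2 and 3. The wild type hearts lay close together, and the R193H hearts spread to both sides of them. Acta2 means were 197 ± 9.08 and 217 ± 70.0 CPM (SD, n = 3 each), with a log2 fold change of 0.14 (SE 0.23, edgeR adjusted p = 0.950, higher than every wild type heart in 2 of 3 R193H hearts). Without R193H replicate 2 the log2 fold change was -0.11, and without R193H replicate 3 it was 0.36. Other actins are close to it in sequence, but only 0.352% of the 50-base words of its transcript occurred in transcripts of other genes.

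Tagln, which encodes the actin-binding protein transgelin (chromosome 9, 45929619 to 45936058), measured 43.1, 54.5 and 55.6 CPM in the wild type hearts, against 49.7, 82.5 and 43.9 CPM in R193H replicates 1, 2 and 3. A single R193H heart, replicate 2, lay above every wild type heart, and R193H replicates 1 and 3 lay within the wild type range. The Tagln log2 fold change was 0.20 (SE 0.26, edgeR adjusted p = 0.936) with all hearts and -0.13 without R193H replicate 2. Whether the libraries keep strand is not given in the sources used here, and 55.0% of the Tagln exon bases overlap exons of the antisense gene Gm48529 and 5.89% those of Pcsk7, so its counts can include reads of these.

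Myh11, the smooth muscle myosin heavy chain (chromosome 16, 14194535 to 14291372) and a gene largely restricted to smooth muscle, measured 101, 111 and 142 CPM in the wild type hearts, against 116, 145 and 103 CPM in R193H replicates 1, 2 and 3. The ranges of the groups nearly coincided. The means were 118 ± 21.3 and 121 ± 21.5 CPM (SD, n = 3 each), and the log2 fold change was 0.040 with a 95% interval from -0.32 to 0.40. Leaving out single hearts turned its sign in 3 of 6 cases, to -0.11 without R193H replicate 2.

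Cnn1, which encodes calponin, an inhibitor of actomyosin found in differentiated smooth muscle (chromosome 9, 22099216 to 22109630), measured 5.04, 6.36 and 5.16 CPM in the wild type hearts, against 5.49, 11.7 and 4.89 CPM in R193H replicates 1, 2 and 3. R193H replicate 2 stood far above the other hearts, which lay close together. It was the least abundant of the contractile genes, with 71 to 255 counts per heart. Its log2 fold change of 0.41 (SE 0.33, edgeR adjusted p = 0.901) was the largest of the 10 genes with all hearts, and it was -0.087 without R193H replicate 2. The 95% interval with all hearts ran from a 0.776-fold to a 2.28-fold level, so a doubling of Cnn1 was not excluded by these hearts.

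Rgs5, a regulator of G protein signalling and a leading pericyte marker of the heart (chromosome 1, 169655501 to 169695813), measured 241, 229 and 343 CPM in the wild type hearts, against 260.1, 219 and 255 CPM in R193H replicates 1, 2 and 3. Wild type replicate 3 stood above the other 5 hearts, and R193H replicate 2 was lowest. Group means were 271 ± 62.5 and 245 ± 22.1 CPM (SD, n = 3 each). For Rgs5 the log2 fold change was -0.15 (SE 0.15, edgeR adjusted p = 0.912) and turned to 0.056 without wild type replicate 3. Without R193H replicate 2 it was -0.074.

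Pdgfrb, the receptor through which pericytes are recruited, measured 111, 106 and 120.5 CPM in the wild type hearts, against 124, 135 and 112 CPM in R193H replicates 1, 2 and 3. R193H replicates 1 and 2 exceeded every wild type heart and replicate 3 lay within their range, and fibroblasts also express this gene. The Pdgfrb log2 fold change was 0.13 (SE 0.093, edgeR adjusted p = 0.900) and it kept its sign with each heart left out, between 0.063 (without R193H replicate 2) and 0.21. Notch3, the mural Notch receptor (chromosome 17, 32120820 to 32166852), measured 93.9, 80.9 and 99.9 CPM in the wild type hearts, against 93.5, 97.9 and 87.7 CPM in R193H replicates 1, 2 and 3. All 3 R193H values lay inside the wild type range. Notch3 had a log2 fold change of 0.022 with a 95% interval from a 0.878-fold to a 1.18-fold level, and 6.09% of its exon bases overlap the antisense gene Gm17276. Without R193H replicate 2 the Notch3 log2 fold change was -0.013.

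Cspg4, the NG2 proteoglycan of the pericyte surface (chromosome 9, 56865033 to 56899870), measured 31.4, 33.4 and 34.5 CPM in the wild type hearts, against 33.5, 39.1 and 27.8 CPM in R193H replicates 1, 2 and 3. As for Acta2, the R193H hearts reached both above and below a narrow wild type range. For Cspg4 the log2 fold change was 0.015 (SE 0.12) with all hearts and -0.11 without R193H replicate 2. Higd1b, a protein of the hypoxia-inducible domain family (chromosome 11, 102835849 to 102838040), measured 7.95, 5.15 and 7.61 CPM in the wild type hearts, against 7.60, 6.86 and 5.96 CPM in R193H replicates 1, 2 and 3. All R193H values lay inside the wild type range, and its log2 fold change was -0.019 (SE 0.19), or 0.11 when scaled by library totals, a scaling that put the median of all genes at 0.13. Without R193H replicate 2 the Higd1b log2 fold change was -0.023.

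Vtn, which encodes the matrix protein vitronectin (chromosome 11, 78499091 to 78502324), measured 22.6, 25.1 and 27.4 CPM in the wild type hearts, against 32.3, 27.6 and 26.7 CPM in R193H replicates 1, 2 and 3. R193H replicates 1 and 2 exceeded every wild type heart, by little in replicate 2, and R193H replicate 3 lay below wild type replicate 3. It had the smallest unadjusted p of the 10 genes, 0.0889, in edgeR, with a log2 fold change of 0.20 (SE 0.11, adjusted p = 0.879). Without R193H replicate 1 its log2 fold change was 0.12, and without R193H replicate 2 it was 0.24.

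**Figure D2:**
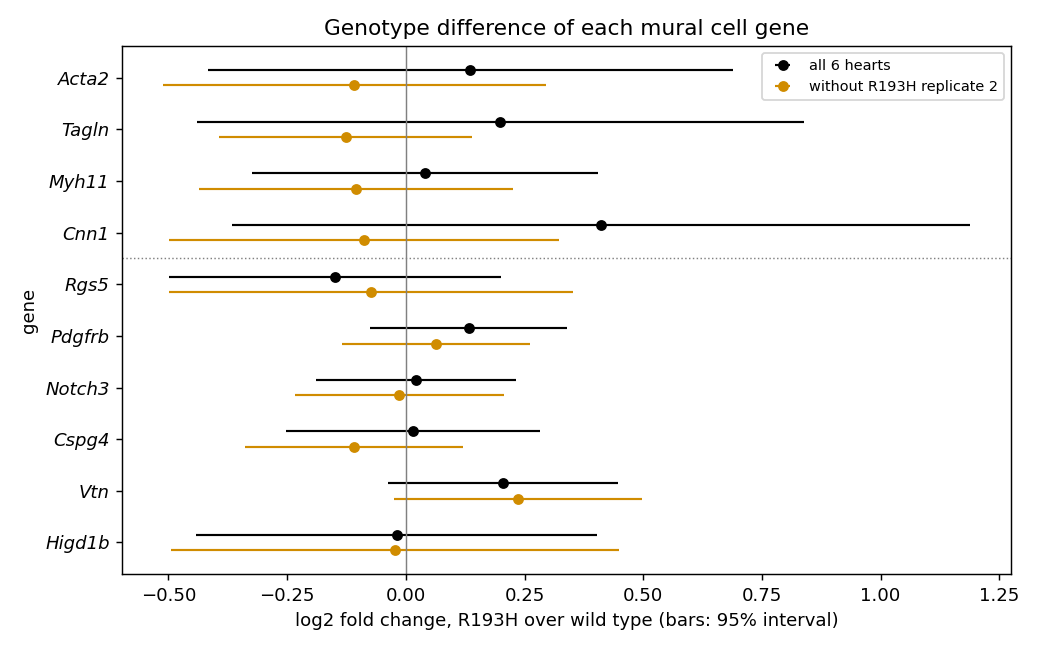
Log2 fold change of each gene, R193H over wild type, with its 95% interval from the edgeR fit, over all 6 hearts (black) and without R193H replicate 2 (orange); contractile genes are above the dotted line. Every interval includes 0 in both settings, and the 4 contractile points lie right of 0 with all hearts and left of 0 without R193H replicate 2.

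The contractile and pericyte genes were then compared within each heart, where library scaling cancels. The mean log2 CPM of the 4 contractile genes minus that of the 6 pericyte genes, taken relative to its wild type mean, was -0.13, 0.19 and -0.058 in wild type replicates 1, 2 and 3, and -0.084, 0.57 and -0.17 in R193H replicates 1, 2 and 3. Only R193H replicate 2 lay above the wild type hearts, and R193H replicate 3 lay below all of them. The genotype difference was 0.11 on the log2 scale, within SDs of 0.17 in wild type and 0.41 in R193H hearts (n = 3 each), and it was -0.13 without R193H replicate 2. No test is given for this value, because the genes were chosen with results of these hearts known.

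Against the wild type mean, the contractile genes alone stood at 0.030, 0.65 and -0.25 in R193H replicates 1, 2 and 3, and the pericyte genes alone at 0.11, 0.081 and -0.079. The R193H hearts were spread further apart in the contractile mean than in the pericyte mean. In R193H replicate 2 the contractile genes stood at 0.53 for Acta2, 0.70 for Tagln, 0.31 for Myh11 and 1.07 for Cnn1, and the pericyte genes between -0.28 for Rgs5 and 0.27 for Pdgfrb. The ratio of Acta2 to Rgs5 in CPM was 0.792, 0.841 and 0.605 in wild type and 0.847, 1.30 and 0.569 in R193H replicates 1, 2 and 3. Acta2 exceeded Rgs5 in counts in R193H replicate 2 alone among the 6 hearts.

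**Figure D3:**
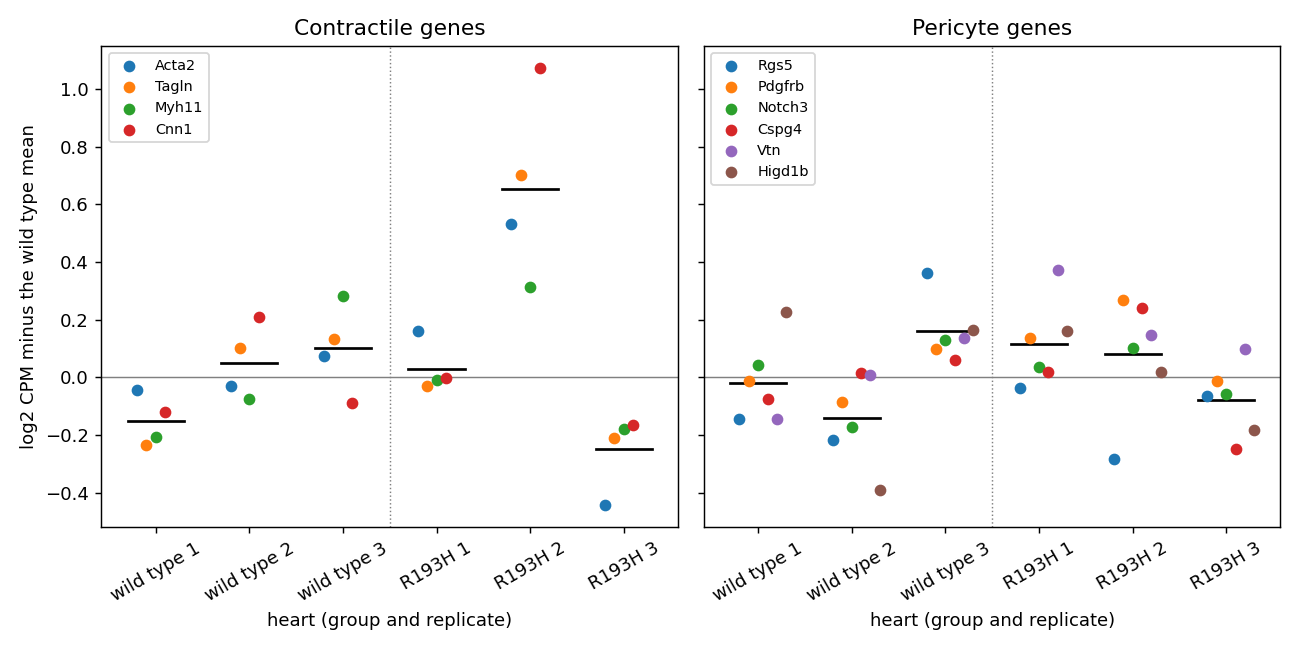
Log2 CPM of each gene minus its wild type mean in every heart, contractile genes on the left and pericyte genes on the right; black lines are the mean over the genes of the panel. The contractile mean was 0.65 in R193H replicate 2 and -0.25 in R193H replicate 3, while the pericyte mean stayed between -0.14 and 0.16 in all 6 hearts.

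The contractile genes stood high by unequal amounts in R193H replicate 2. Here the ratio of Cnn1 to Myh11 in CPM was 0.0805, against 0.0363 to 0.0575 in the wild type hearts and 0.0473 and 0.0474 in R193H replicates 1 and 3. The ratio of Tagln to Myh11 was 0.569 in it and 0.392 to 0.492 in wild type hearts. The ratio of Acta2 to Myh11, 1.97 in it, was 1.89 and 1.90 in wild type replicate 1 and R193H replicate 1. Coefficients of variation of the contractile genes were 4.60% to 18.1% in wild type and 17.7% to 51.1% in R193H hearts. Those of the pericyte genes were 4.70% to 23.0% and 5.46% to 16.8%. The fitted biological coefficient of variation was 28.5% for Cnn1, 22.4% for Tagln and 20.3% for Acta2, against a median of 14.2% over all genes, and it was 10.5% for Pdgfrb and for Notch3.

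Levels of different genes were compared per length, as RPKM, the CPM divided by the exon length in kilobases. Acta2 had the highest level of the 10 at a mean of 102 RPKM over the 6 hearts, above 97.3% of all tested genes with a length. Rgs5 followed at 56.8 RPKM, Tagln at 34.4 and Pdgfrb at 21.5. Myh11 stood at 18.1 RPKM, Vtn at 15.4 and Notch3 at 11.5. Higd1b, at 8.09 RPKM, lay above Cspg4 at 4.10 and Cnn1 at 2.55 although its counts were among the lowest, since it is the shortest of the 10. The order of neighbours held in 6 of 6 hearts except for Rgs5 over Tagln and Myh11 over Vtn, each in 5 of 6. Ranges over the hearts overlapped between Acta2 and Rgs5, Rgs5 and Tagln, Pdgfrb and Myh11, Myh11 and Vtn, and Cspg4 and Cnn1. Contractile and pericyte genes were thus interleaved in level, and the contractile group held both the highest and the lowest of them.

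**Figure D4:**
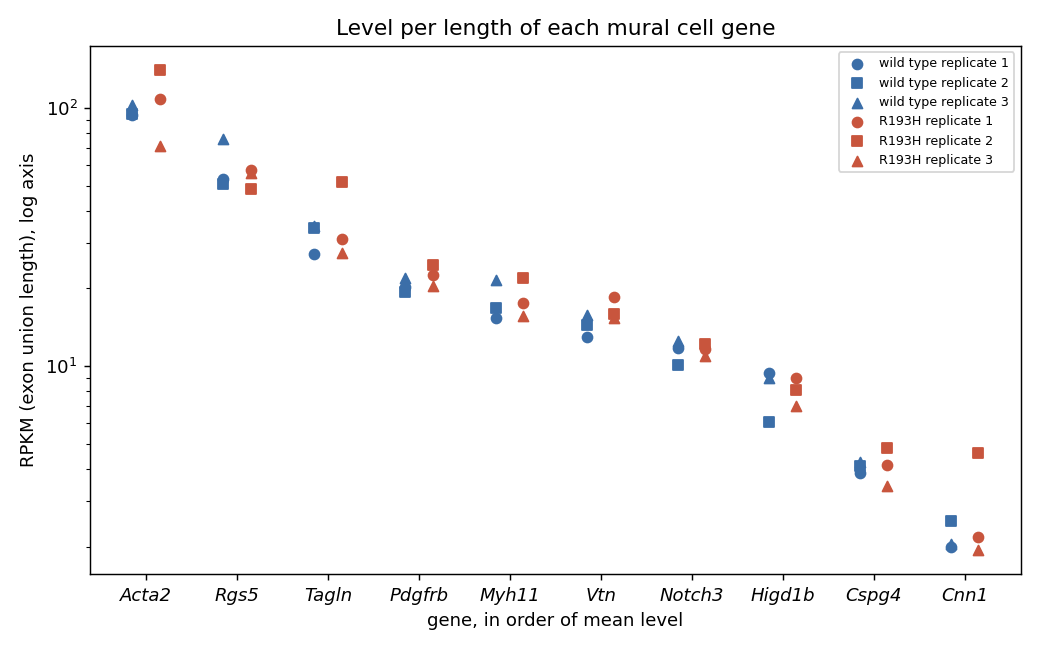
Level per length (RPKM with the union of annotated exons, log axis) of the 10 genes in each heart, in order of their mean; blue symbols are wild type and red symbols R193H hearts. Acta2 ranged from 71.3 to 140.0 RPKM and Cnn1 from 1.94 to 4.63 RPKM.

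Further genes of the smooth muscle apparatus, which include the myosin light chain kinase Mylk and its substrate Myl9, had higher means in R193H hearts for 8 of 14 and lower for 6, with a median log2 fold change of 0.048 and 0 past the threshold. As for the 4 contractile genes, R193H replicate 2 was the highest heart for most, here 10 of 14. The list mean was 0.50 in it and between -0.11 and 0.067 in the other 5 hearts. The first 3 in order of p were Actg2, the enteric smooth muscle actin, at 1.08 (SE 0.47, edgeR adjusted p = 0.851), Kcnmb1, the beta subunit of the smooth muscle potassium channel BK, at 0.50 (SE 0.24) and Npnt, the matrix protein nephronectin, at 1.07 (SE 0.55). Actg2 averaged 0.567 and 1.23 CPM in the wild type and R193H groups, a level with few counts behind it. Without R193H replicate 2 the log2 fold changes were 0.68 for Actg2, 0.34 for Kcnmb1 and 0.31 for Npnt, the list median was -0.075, and 4 of 14 genes had higher means.

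Other pericyte genes had higher means for 11 of 19 and lower for 8, with a median of 0.030 (0.018 without R193H replicate 2) and 0 past the threshold. Their list mean lay between -0.16 and 0.12 in the wild type hearts and between -0.015 and 0.073 in the R193H hearts. Tbx18, a transcription factor of mural cells and epicardium, measured 6.17, 5.33 and 6.16 CPM in the wild type hearts, against 8.32, 8.10 and 7.12 CPM in R193H replicates 1, 2 and 3. It was the 1 gene of this list whose groups did not overlap (log2 fold change 0.41, SE 0.14, edgeR adjusted p = 0.746), against 6.02% of all genes with every R193H heart higher. P2ry14, a receptor for nucleotide sugars, and Heyl, a Notch target of mural cells, stood at 0.33 (SE 0.19) and 0.19 (SE 0.13).

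Among genes of platelet-derived growth factor and angiopoietin signalling, 8 of 11 had higher means (median 0.034, or -0.056 without R193H replicate 2; 0 past the threshold). Pdgfb, the endothelial ligand of Pdgfrb, stood at 0.15 (SE 0.10, edgeR adjusted p = 0.900), close to its receptor at 0.13. On this list only Pdgfc had groups that did not overlap, with R193H lower, as for 5.80% of all genes. Pdgfc, a ligand that acts mainly on the alpha receptor, was lower in every R193H heart than in any wild type heart, at 3.19 ± 0.592 and 2.12 ± 0.164 CPM (SD, n = 3 each; log2 fold change -0.58, SE 0.23, edgeR adjusted p = 0.816). Of the Notch ligands, receptors and targets, 6 of 14 had higher means (median -0.037, or -0.059 without R193H replicate 2; 0 past the threshold), with the target Hey1 at -0.22 (SE 0.16) and the feedback gene Nrarp at 0.17 (SE 0.15).

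Genes related to myocardin and SRF, not all of them regulators, had higher means for 9 of 18 (median -0.0018, or -0.031 without R193H replicate 2). None passed the threshold. The groups did not overlap for 3, all lower in R193H hearts, as for 5.80% of all genes. Myocd, which encodes myocardin, measured 92.8, 94.6 and 89.2 CPM in the wild type hearts, against 78.5, 71.5 and 76.0 CPM in R193H replicates 1, 2 and 3. It was lowest in R193H replicate 2, the heart with the highest contractile genes. The mean of the whole list relative to wild type was highest there, at 0.24, against -0.072 to 0.075 in the other hearts. R193H replicate 2 was the highest heart for 5 of the 18 genes and the lowest for 4. The log2 fold change of Myocd was -0.29 (SE 0.075) with an edgeR adjusted p of 0.704. Vcl, which encodes the adhesion protein vinculin, and the transcription factor Gata6 stood at -0.23 (SE 0.081) and -0.28 (SE 0.10). Cardiomyocytes also express these 3 genes. The mean of the cardiomyocyte markers relative to wild type was -0.013, 0.050 and -0.038 in the wild type hearts, against -0.028, -0.12 and -0.066 in R193H replicates 1, 2 and 3. The groups overlapped in this mean. They did not overlap in summed CPM, at 45407 to 48178 in wild type and 41324 to 44676 in R193H hearts. Of the 10 markers, 8 had lower means and 2 higher means in R193H hearts. Without R193H replicate 2, 6 had lower and 4 higher means, and the median log2 fold change went from -0.11 to -0.040. For 4 markers the groups did not overlap, all lower in R193H hearts, as for 5.80% of all genes. The part of cardiomyocytes in the Myocd, Vcl and Gata6 values was not tested.

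Markers of other cells were also high in R193H replicate 2. All 10 fibroblast markers were highest in this heart, as were 7 of 8 elastic fibre genes of artery walls, 5 of 8 activated fibroblast markers tested and 6 of 8 epicardial markers. The fibroblast and elastic fibre lists share a gene, so their counts are not independent. Summed fibroblast markers ranged from 1367 to 1615 CPM in the wild type hearts and 1453 to 2257 CPM with R193H, and summed elastic fibre genes from 776 to 843 and 769.8 to 1086 CPM. The list means relative to wild type in R193H replicate 2 were 0.67 for fibroblasts, 0.56 for elastic fibres, 0.93 for activated fibroblasts and 2.005 for epicardium. In the other hearts they ran from -0.10 to 0.058 for fibroblasts and from -0.17 to 0.089 for elastic fibres. The spread there was wider for activated fibroblasts, from -0.47 to 0.57 (wild type replicate 2), and for epicardium, from -0.80 to 1.06 (R193H replicate 3). Endothelial markers stood at 0.17 there, beside a wild type replicate 3 at 0.16, and their sums overlapped, at 1529 to 1820 and 1570 to 1753 CPM. Macrophage markers summed to 198 to 235 CPM in the wild type hearts and 247 to 349 CPM with R193H. Their list mean was 0.68, 0.81 and 0.25 in R193H replicates 1, 2 and 3, and -0.082 to 0.11 in wild type hearts. Without R193H replicate 2 the median log2 fold change went from 0.53 to 0.44 for macrophage markers. It went from 0.19 to -0.078 for fibroblasts, 0.11 to -0.20 for elastic fibres and 0.30 to -0.11 for activated fibroblasts. For epicardium it went from 1.60 to 0.54, and for endothelium from 0.082 to 0.018. Atrial markers, 6 of 7 of which were tested, differed widely between hearts of either genotype, with list means of 2.07, 0.99 and -3.06 in the wild type hearts, against -1.36, 0.82 and -1.49 in R193H replicates 1, 2 and 3. Their sums ran from 94.1 to 746.6 CPM in wild type hearts and from 155 to 320.1 CPM in hearts with R193H. The median log2 fold change of the atrial markers went from -0.80 with all hearts to -2.33 without R193H replicate 2. R193H replicate 2 was thus the highest R193H heart in atrial markers, below wild type replicates 1 and 2. The part of these cell types, and of atrial tissue, in the contractile values was not tested.

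**Figure D5:**
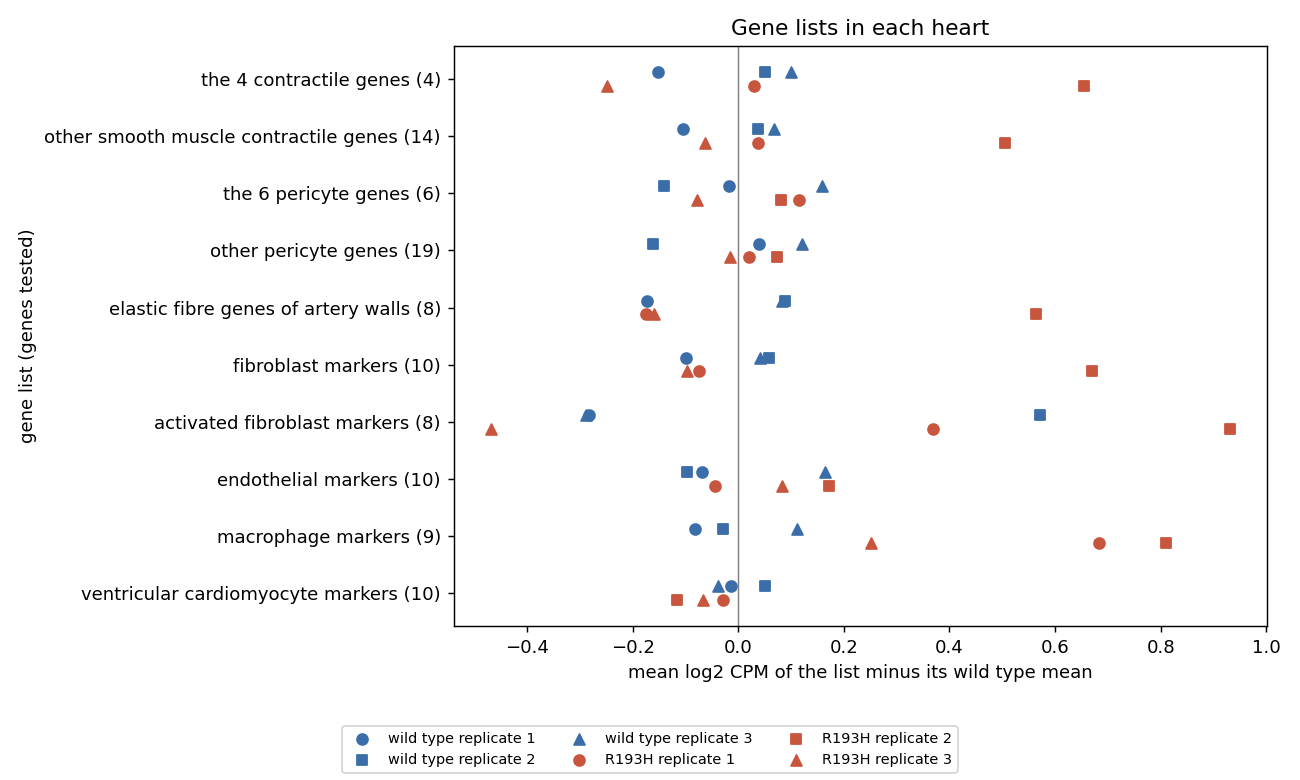
Mean log2 CPM of each gene list minus its wild type mean, 1 point per heart, with the number of genes tested in brackets; blue symbols are wild type and red symbols R193H hearts. In R193H replicate 2 (red square) the contractile genes, other smooth muscle genes, elastic fibre genes and fibroblast markers stood at 0.65, 0.50, 0.56 and 0.67, and the pericyte genes at 0.081.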

How the data were processed

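Heart RNA was isolated with Trizol and made into Illumina libraries, per the labels' protocols. The authors deposited whole-number read counts per gene, not normalized; HISAT2 2.0.4 and GRCm38 are named, per the submitters' processing notes. The sources used here do not give the counting program, annotation release or strand setting. Columns were matched to hearts by title, and groups came from the genotype label.

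The count model was edgeR 4.0.16 in R 4.3.3. Its filterByExpr defaults kept 14370 of 44792 genes, scaling was by TMM, and genotypes were compared by the robust quasi-likelihood test without covariates, with Benjamini-Hochberg adjustment over all genes tested and a threshold of 0.05. The SE is the log2 fold change divided by the root of its F value, and 95% intervals use its total degrees of freedom. Log2 CPM used a prior count of 2. RPKM used the union of exons in GENCODE M21 on GRCm38, which gave a length for 91.6% of tested genes. At these depths, 3 counts, the limit a count of 0 allows, equal 0.137 to 0.204 CPM, for counting error only. No pair of hearts agreed within sampling noise (lowest chi-square per degree of freedom 12.2).

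The genes and lists were chosen with earlier results of these data known, and R193H replicate 2 was singled out after its values were seen. All 10 genes are named, with at most 3 genes by smallest p from each other list. Scripts were tested on simulated data. Alternatives were 3 other scalings, 2 other filters, DESeq2 1.42.0, limma-voom (limma 3.58.1), mitochondrial genes left out, and each heart left out, and for the contractile against pericyte value a prior count of 0.5, medians, summed CPM and smaller sets.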

Additional observations from a re-analysis of the deposited data

How the results depend on the processing

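Of the 10 genes, 0 passed the threshold under any alternative, and the lowest adjusted p was 0.383, for Acta2 without R193H replicate 3. Of 140 values of single genes under the alternatives, 124 kept the sign. Beside single hearts left out, the sign turned for Cspg4 in limma-voom (-0.00055) and Higd1b under library totals (0.11). With each heart left out, log2 fold changes ranged from -0.11 to 0.36 for Acta2, -0.13 to 0.38 for Tagln, -0.11 to 0.19 for Myh11, -0.087 to 0.64 for Cnn1, -0.26 to 0.056 for Rgs5, 0.063 to 0.21 for Pdgfrb, -0.060 to 0.090 for Notch3, -0.11 to 0.14 for Cspg4, 0.12 to 0.28 for Vtn and -0.19 to 0.087 for Higd1b. The contractile minus pericyte difference ranged from -0.13 to 0.24 with single hearts left out and from 0.083 to 0.14 under the other choices. Over all genes, edgeR called 1, and 38 without a filter on low counts, 36 in DESeq2, 0 with mitochondrial genes left out, and 3 to 21 with each heart left out. The 1 gene called is mitochondrially encoded, so it was absent when mitochondrial genes were left out. The cause of the other shifts was not tested. No paired analysis was possible because the labels give no replicate numbers shared by the groups. With 71 counts in its shallowest heart, Cnn1 is the gene that depth limits most.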

Other observations

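Non-muscle relatives of the contractile genes were measured beside them. Actb, the cytoplasmic beta actin, averaged 322 ± 18.0 CPM in the wild type hearts against 390.4 ± 65.6 CPM with R193H (SD, n = 3 each; log2 fold change 0.28, SE 0.12, edgeR adjusted p = 0.850), and Cnn3, the broadly expressed calponin, 55.6 ± 6.23 and 66.6 ± 6.64 CPM (0.26, SE 0.11, adjusted p = 0.816). Both were highest in R193H replicate 2, at 460.0 and 73.0 CPM, and without it their log2 fold changes were 0.15 and 0.19. Myh10, a non-muscle myosin heavy chain, stood at -0.26 (SE 0.22), or -0.46 without that heart. Of 17 paralogs of any of the 10 genes that were tested, among them the striated muscle actins and the other Notch receptors, 10 had higher means in R193H hearts, with a median log2 fold change of 0.034 (-0.016 without R193H replicate 2) and 0 past the threshold. Values of these and the other listed genes without R193H replicate 2 were added after seeing the data.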
